A study of Mus musculus with 18 samples.

Results

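The proteasome subunits, activators and assembly factors of the mouse were followed across 3 populations of blood-forming cells after tamoxifen. The 50 genes are all those, of 14419 in the deposited table, whose symbol begins with Psma, Psmb, Psmc, Psmd, Psme, Psmf or Psmg and goes on with a digit. One of them, Psmc3ip, encodes a recombination factor and is no proteasome protein, so 49 genes belong to the proteasome by name. The rule uses symbols and no measured value. All 50 entered every comparison with no filter on low values, and every gene of the table reached a value of 1 in at least 6 libraries. Levels are given in normalised CPM, the authors' normalised signal, which is like CPM and whose scaling method is not given. Of the 50 genes 4 averaged under 10 normalised CPM, namely Psmb11, Psma8, Psmg3 and Psmg4.

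RNA-seq was made from multipotent progenitors (MPPs), short-term haematopoietic stem cells (ST) and long-term haematopoietic stem cells (LT). They were sorted from bone marrow of adult male mice (C57BL/6) given tamoxifen, a selective modulator of estrogen receptors, or its corn oil vehicle. The labels name no transgene or mutation. The sources used here do not give the dose, the sort gates or the number of mice per library. The 6 groups held 3 libraries each, described as biological replicates: MPP tamoxifen and MPP oil after 1 week, and ST tamoxifen, ST oil, LT tamoxifen and LT oil after 2 weeks. Duration and population therefore cannot be told apart in any comparison of MPPs with ST or LT cells. In such bulk samples fewer cells of a type and less RNA per cell cannot be told apart either.

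Recovered reads numbered 2728800 to 5279821 per library, and each of the 50 genes had at least 16 reads in every group. The marker genes of the populations were measured in all groups. Flt3, a receptor of progenitors, averaged 547 normalised CPM in MPP tamoxifen, 681 in MPP oil, 69.7 in ST tamoxifen, 142 in ST oil, 35.6 in LT tamoxifen and 83.1 in LT oil. Slamf1, a receptor that marks long-term stem cells, averaged 0.803 normalised CPM in MPP tamoxifen, 0.785 in MPP oil, 28 in ST tamoxifen, 19.1 in ST oil, 44.2 in LT tamoxifen and 25.5 in LT oil. Kit ran from 566 normalised CPM (ST tamoxifen) to 1090 (LT oil), Cd34 from 83.8 (LT tamoxifen) to 581 (MPP oil) and Cd48 from 6.39 (LT tamoxifen) to 99.6 (ST oil). Procr ran from 16.2 normalised CPM (MPP tamoxifen) to 51.8 (LT oil) and Ly6a from 47.6 (ST oil) to 94.5 (MPP tamoxifen). LT tamoxifen library A stood apart. Its mitochondrial ribosomal RNA share was 25.4%, where LT tamoxifen libraries B and C had 17.7% and 18.6% and the LT oil libraries 18.1% to 18.7%. The titles of the ST libraries are numbered anew from 1, so a separate preparation cannot be told apart from the population.

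The proteasome is the machine that degrades ubiquitin-tagged proteins in the cytoplasm and nucleus. Its 20S core is a barrel of alpha and beta rings whose catalytic beta subunits cut the substrate, and its 19S regulatory particle (a base with ATPases and a lid) binds, unfolds and feeds the substrate into the barrel. Interferon-induced beta subunits replace the constitutive catalytic ones in the immunoproteasome, other activators (PSME proteins) can cap the barrel in place of the 19S particle, and chaperones assemble both particles. Adult blood stem cells are known for low protein synthesis and for a dependence on protein quality control.

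The promoters of 4 genes of the 19S particle and the activators are shown because these genes rose together in ST cells, as described after them. Each is the 250 bases before the start of the gene from the RefSeq table (GRCm38.p6), 5′ to 3′ on the gene's strand, in which 41 of the 50 genes were matched. Capitals mark the motif found. Psme3 lies at chr11:101315963-101316212, Psmd1 at chr1:86064369-86064618, Psmd2 at chr16:20651402-20651651 and Psmd11 at chr11:80428365-80428614, all on the plus strand.
Psme3: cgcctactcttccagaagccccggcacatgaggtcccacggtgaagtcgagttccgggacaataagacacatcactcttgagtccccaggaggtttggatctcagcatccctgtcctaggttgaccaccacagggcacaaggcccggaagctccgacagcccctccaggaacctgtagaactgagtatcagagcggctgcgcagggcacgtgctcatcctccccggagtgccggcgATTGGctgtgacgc
Psmd1: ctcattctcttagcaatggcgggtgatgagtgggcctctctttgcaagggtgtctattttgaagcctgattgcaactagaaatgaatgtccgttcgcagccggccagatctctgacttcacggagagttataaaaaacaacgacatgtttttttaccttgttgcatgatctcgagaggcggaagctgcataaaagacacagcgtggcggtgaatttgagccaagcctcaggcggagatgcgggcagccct
Psmd2: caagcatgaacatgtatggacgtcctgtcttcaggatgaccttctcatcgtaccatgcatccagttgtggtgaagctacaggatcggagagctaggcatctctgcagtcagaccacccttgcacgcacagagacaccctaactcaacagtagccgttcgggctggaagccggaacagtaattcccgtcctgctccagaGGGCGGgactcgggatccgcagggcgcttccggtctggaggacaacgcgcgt
Psmd11: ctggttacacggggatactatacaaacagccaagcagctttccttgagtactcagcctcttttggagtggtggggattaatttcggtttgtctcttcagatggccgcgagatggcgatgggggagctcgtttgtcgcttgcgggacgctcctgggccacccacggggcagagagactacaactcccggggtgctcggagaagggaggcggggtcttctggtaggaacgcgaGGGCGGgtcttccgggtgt
The motifs searched, on both strands, were CCAAT (the NF-Y box), GGGCGG (the GC box bound by SP1), CCGGAAGT (an ETS motif), TGACNNNGC (the antioxidant response element through which NFE2L1 and NFE2L2 act) and the full palindromic estrogen response element. Matches of different motifs were allowed to overlap. A match is a description of letters, not of binding. The Psme3 window held the reverse complement of CCAAT, the Psmd2 and Psmd11 windows held GGGCGG, and the Psmd1 window held none of the 5. Psmd3 and Psmd7, which also rose, are named only. Among the 41 genes matched, 15 (36.6%) held CCAAT, against 37.5% of the 27025 genes in the promoter table. A gene counted if any of its promoters held the motif. GGGCGG stood in 22 (53.7%, against 35.4% of all), CCGGAAGT in 5 (12.2%, against 3.23%) and TGACNNNGC in 5 (12.2%, against 11.5%). The full estrogen response element stood in 0 of the 41, against 0.0666% of all.

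In ST cells, tamoxifen went with higher levels of 5 genes of the 19S particle and of Psme3, while no gene of the 20S core passed the test. The comparison asks what 2 weeks of tamoxifen changed in short-term stem cells. Of the 50 genes, 6 rose and 0 fell at limma's adjusted p under 0.05 over all genes. The background of all 14419 genes was 6.01% higher, 3.6% lower and 9.61% called in either direction.

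Psme3 encodes PA28-gamma, the nuclear activator that opens the 20S core without ATP or ubiquitin. It stood at 233, 232 and 229 normalised CPM in the ST tamoxifen libraries A, B and C, against 110, 127 and 120 in ST oil. The groups did not overlap, and the tamoxifen libraries lay within a narrow range. The fold change was 1.94 (log2 0.95 ± 0.12 SE, adjusted p = 8.37e-05).

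Among the scaffold subunits of the 19S base, Psmd1 (RPN2) stood at 207, 227 and 261 normalised CPM in ST tamoxifen, against 141, 136 and 142 in ST oil. Its fold change was 1.65 (log2 0.72 ± 0.14 SE, adjusted p = 0.00262). Psmd2 (RPN1), which docks ubiquitin receptors, stood at 89.7, 90.4 and 97.5 normalised CPM in ST tamoxifen, against 44.6, 59.5 and 61.1 in ST oil. Neither gene's groups overlapped. The fold change of Psmd2 was 1.68 (log2 0.75 ± 0.15 SE, adjusted p = 0.00313). Psmd4 (RPN10), a ubiquitin receptor of the same base, had a log2 fold change of 0.38 and did not pass.

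In the lid, the ring of non-ATPase subunits around the deubiquitinase PSMD14, 3 of 8 genes rose. Psmd7 (RPN8), the partner of PSMD14, stood at 125, 114 and 117 normalised CPM in ST tamoxifen, against 80.5, 81.7 and 83.1 in ST oil (1.44-fold, log2 0.53 ± 0.12 SE, adjusted p = 0.00718). Psmd3 (RPN3) stood at 50.3, 44.1 and 42.5 normalised CPM in ST tamoxifen, against 24.2, 32 and 31.2 in ST oil (1.56-fold, log2 0.64 ± 0.17 SE, adjusted p = 0.0208). Psmd11 (RPN6), which clamps the lid to the core, stood at 75.8, 93 and 76.1 normalised CPM in ST tamoxifen, against 56.4, 53.8 and 65.5 in ST oil (1.39-fold, log2 0.47 ± 0.14 SE, adjusted p = 0.0334). None of the 3 overlapped between groups. The call of Psmd3 was lost without ST oil library A (adjusted p = 0.114), without ST tamoxifen library A (0.0673) and after rescaling without mitochondrial genes (0.0537), with 0.0109 to 0.114 over all alternatives. That of Psmd11 was lost in 9 of 17 alternatives, among them without ST oil library A (0.103) or B (0.115) and without ST tamoxifen library B (0.157) or C (0.0607), with 0.0169 to 0.157 over all.

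**Figure D1:**
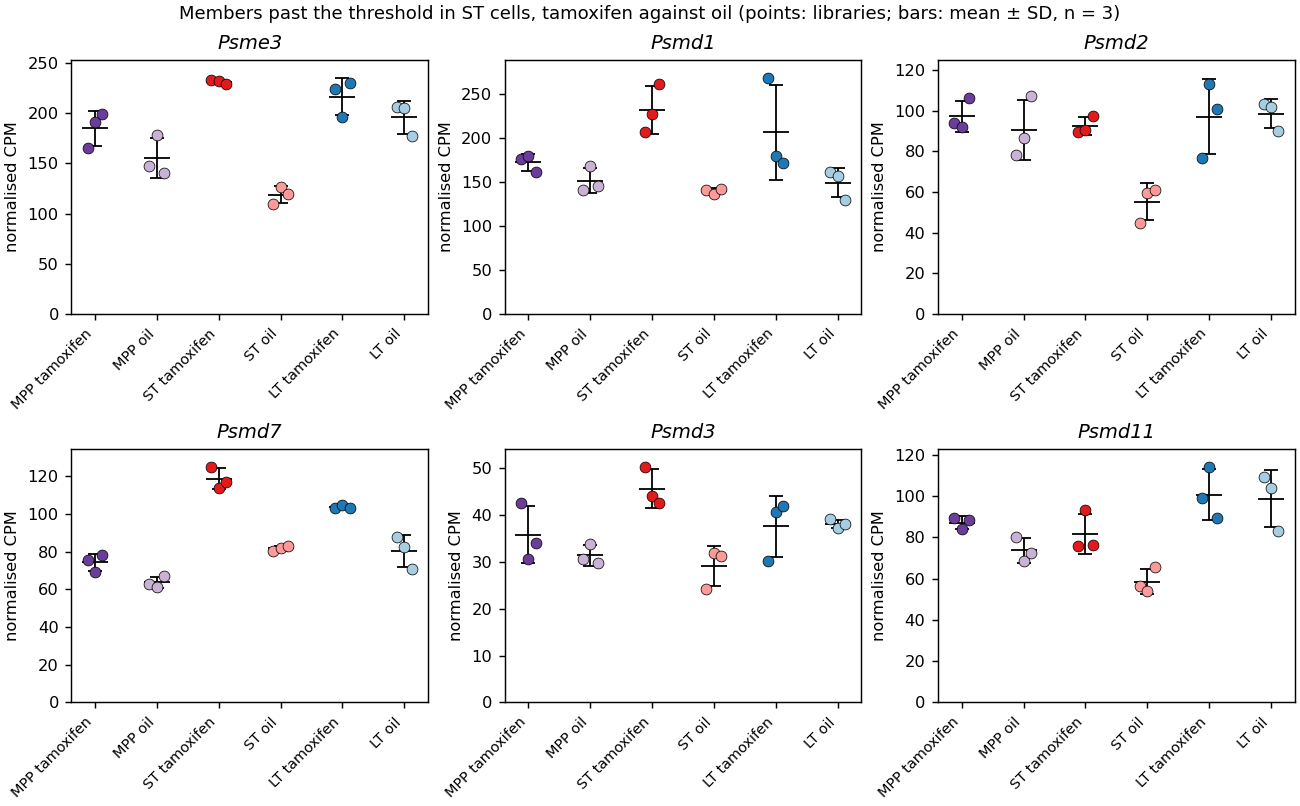
Levels of the 6 genes that rose in ST cells, in normalised CPM on axes from 0, for each library of the 6 groups. Points are libraries and bars are the mean ± SD of 3; in every panel the ST tamoxifen points lie above all ST oil points, for Psme3 at 229 to 233 against 110 to 127.

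Over the whole 19S base and lid, 5 of 17 genes rose, 16 lay above 0 and the median log2 fold change was 0.36, against 0.01 over all genes. Within it, 0 of the 6 ATPases of the base passed (median 0.19), 2 of the 3 non-ATPase subunits (median 0.72) and 3 of the 8 lid genes (median 0.37). Of the ATPases, Psmc3 had the smallest p (log2 0.47, adjusted p = 0.119). In the 20S core of 7 alpha and 7 constitutive beta subunits, 0 of 14 passed, 7 lay above 0 and the median was 0.00, with a range of -0.23 to 0.49. The smallest p was that of Psma5 in the alpha ring (log2 0.11, adjusted p = 0.71) and of Psmb3 among the structural beta subunits (log2 -0.23, adjusted p = 0.739). Psmb5, which carries the chymotrypsin-like activity, was at the top of that range at 85.7, 65.3 and 81.5 normalised CPM in ST tamoxifen, against 58.8, 53.2 and 51.4 in ST oil (log2 0.49, adjusted p = 0.101).

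The summed level of the 14 core genes was 1531 ± 74.9 normalised CPM in ST tamoxifen and 1529 ± 193 in ST oil (SD, n = 3 each). That of the 17 genes of the 19S base and lid was 1565 ± 75.9 in ST tamoxifen and 1207 ± 45 in ST oil. The core sum divided by the 19S sum was therefore 0.979 ± 0.00903 in ST tamoxifen and 1.27 ± 0.121 in ST oil, and the libraries did not overlap (0.969 to 0.987 in ST tamoxifen, 1.15 to 1.39 in ST oil). It was 0.886 ± 0.0288 in MPP tamoxifen, 0.855 ± 0.0225 in MPP oil, 0.744 ± 0.166 in LT tamoxifen and 0.788 ± 0.00704 in LT oil. ST oil thus held the highest ratios of the 18 libraries. The long-to-short log2 ratio is the mean log2 level of long less that of short transcripts, centred over libraries. It was lowest in ST oil library B (-0.632), which had the highest core to 19S ratio (1.39). It was highest in LT tamoxifen library A (0.483), which had the lowest (0.555). The part of length in the core to 19S ratios was not tested. With length and GC trends removed, the median log2 fold change in ST cells was 0.11 (core) and 0.40 (19S).

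**Figure D2:**
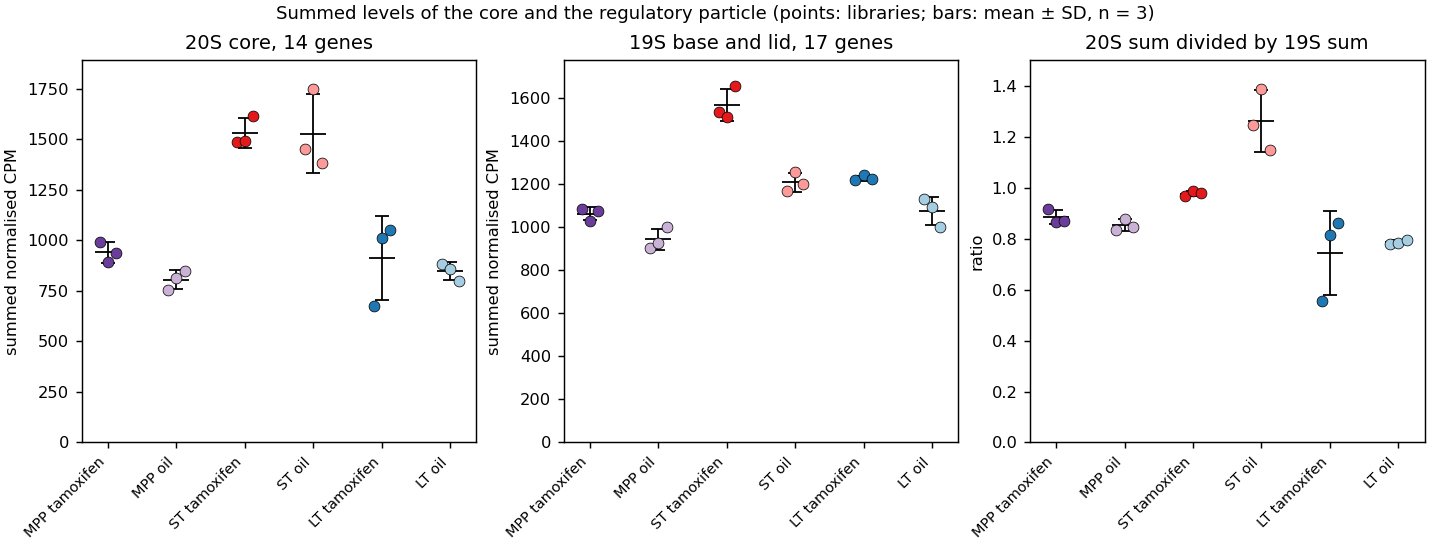
Summed normalised CPM of the 14 core genes, of the 17 genes of the 19S base and lid, and the core sum divided by the 19S sum, by group. Points are libraries and bars the mean ± SD of 3; the ST tamoxifen ratios of 0.969 to 0.987 lie below the ST oil ratios of 1.15 to 1.39, and LT tamoxifen library A has the lowest ratio, 0.555.

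The remaining roles gave no further call in ST cells. None of the 3 immunoproteasome subunits passed: Psmb10 had a log2 fold change of 0.38 (adjusted p = 0.415), Psmb8 0.09 and Psmb9 -0.35. Psmb9 levels were 125, 122 and 119 normalised CPM in ST tamoxifen, against 143, 179 and 147 in ST oil, with no overlap. Among the 4 chaperones of the 20S core (Psmg1 to Psmg4) the log2 fold changes ran from -0.47 to 0.43, with the smallest p for Psmg3 (adjusted p = 0.432), and among the 3 chaperones of the 19S base Psmd5 had the smallest p (log2 0.40, adjusted p = 0.077). Psma8, the alpha subunit of the testis, was at 11.3, 7 and 9.63 normalised CPM in ST tamoxifen, against 8.06, 13.8 and 8.94 in ST oil (adjusted p = 0.844). Psmb11, the catalytic subunit of the thymoproteasome, was low, at 2.26, 2.43 and 1.41 normalised CPM in ST tamoxifen, against 6.42, 4.8 and 4.84 in ST oil (log2 -1.07, adjusted p = 0.0507). It rested on 21 reads in ST tamoxifen and 49 in ST oil. Of the other activators and the inhibitor, Psme1 and Psme2 (the interferon-induced PA28 subunits), Psme4 (PA200) and Psmf1 (PI31) did not pass, and neither did Psme2b-ps, a copy of Psme2 marked as a pseudogene by its symbol, whose reads may be shared with Psme2. Psmc3ip had a log2 fold change of 0.18 (adjusted p = 0.724).

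Levels did not overlap between the ST groups in 11 genes that were higher with tamoxifen and 2 that were lower, where the background was 14.8% higher, 12.2% lower and 27% of all genes in either direction. After rescaling without mitochondrial genes, 4 genes were higher (Psme3, Psmd1, Psmd2 and Psmd7) and Psmb11 was lower, in a fit whose share of all genes called is not given. These 4 kept their call in all 17 alternatives. With trends of transcript length and GC content removed, an alternative chosen after seeing the data, 9 genes were higher and 1 lower, against 10.8% of all genes: Psmb5, Psmc3 and Psmc5 joined the 6, and Psmb11 was lower.

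Other genes that work with the proteasome were read in lists. Of 11 proteasome-associated proteins, 1 rose in ST cells: Uchl5, a deubiquitinase of the 19S particle, averaged 118 ± 15.9 normalised CPM in ST tamoxifen and 72.1 ± 8.06 in ST oil (log2 0.70, adjusted p = 0.00322). Txnl1, a thioredoxin bound to the 19S particle, did not pass (log2 0.42, adjusted p = 0.0619). Nor did Pomp, the core's maturation chaperone (log2 0.09, adjusted p = 0.773), Adrm1, a ubiquitin receptor (log2 -0.08, adjusted p = 0.861), or Shfm1, the small lid subunit SEM1 (log2 -0.41, adjusted p = 0.377). Of 14 genes of ubiquitin supply and delivery, 3 rose and 0 fell. Uba1, the main ubiquitin-activating enzyme, averaged 308 ± 16 normalised CPM in ST tamoxifen and 190 ± 26.2 in ST oil (log2 0.70, adjusted p = 0.000851). Vcp, the unfoldase that hands substrates to the proteasome, averaged 266 ± 4.35 in ST tamoxifen and 179 ± 22.7 in ST oil (log2 0.57, adjusted p = 0.00184), and the third was the shuttle receptor Rad23b.

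Of 10 genes around NFE2L1, the transcription factor known to raise proteasome genes when degradation is blocked, 2 rose. Nfe2l1 itself averaged 74.9 ± 16.9 normalised CPM in ST tamoxifen and 51.5 ± 7.63 in ST oil (log2 0.52, adjusted p = 0.0311). Ddi2, the protease that activates it, averaged 84.9 ± 16.6 in ST tamoxifen and 60.3 ± 14.5 in ST oil (log2 0.49, adjusted p = 0.0488). For genes of the lists, whether a call held in the alternative fits is not given. Of 13 genes of MHC class I processing and interferon regulation, 4 rose and 0 fell, among them the peptide-loading chaperones Calr (log2 0.64, adjusted p = 0.00304) and Pdia3 (log2 0.63, adjusted p = 0.00809). The median log2 fold changes of these lists were 0.14 (associated proteins), 0.20 (ubiquitin), -0.03 (NFE2L1 pathway) and 0.10 (MHC class I), against 0.01 over all genes.

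Other gene groups moved in the same libraries. Of 20 mitosis genes, 7 rose in ST cells (median log2 0.64), and their summed level ran from 4600 to 4920 normalised CPM in ST tamoxifen, against 2480 to 3120 in ST oil. Ccnb1 (log2 0.95, adjusted p = 0.0025) and Plk1 (log2 1.09, adjusted p = 0.0027) had the smallest p. Of 14 erythroblast markers 4 rose, with summed levels of 259 to 306 in ST tamoxifen, against 148 to 171 in ST oil. Ermap (log2 1.80, adjusted p = 0.00481) and Klf1 (log2 1.32, adjusted p = 0.031) had the smallest p. The erythroblast markers did not all go 1 way: 10 of the 14 lay above 0, with a median log2 of 0.59 and a range of -0.89 to 1.82. Of 10 macrophage and monocyte markers only Vcam1 passed (log2 1.19, adjusted p = 0.0238), but 9 lay above 0 and the median log2 was 0.55. Their sums ran from 669 to 753 in ST tamoxifen, against 549 to 753 in ST oil. Of 10 stem and progenitor markers only Mecom rose (log2 0.74, adjusted p = 0.00746). Of these 10 genes 4 lay above 0, the median log2 was -0.24, and their summed level ran from 1680 to 1980 normalised CPM in ST tamoxifen, against 1820 to 2490 in ST oil. None of the 12 neutrophil, 8 B cell, 7 T and NK cell, and 7 stroma and endothelium markers passed. The long-to-short log2 ratio, the mean log2 level of long less that of short transcripts centred over libraries, was -0.33 ± 0.0479 in ST tamoxifen and -0.53 ± 0.0984 in ST oil. The part of each of these in the proteasome values was not tested.

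In LT cells no proteasome gene passed after 2 weeks of tamoxifen. Of the 50 genes 0 were called by limma, where the background was 0.139% higher, 0.277% lower and 0.416% of all genes in either direction. At an unadjusted p under 0.05 there were 8 (7 higher, 1 lower), where 922 of all 14419 genes were higher and 1030 lower. Levels did not overlap in 9 genes that were higher and 2 that were lower, where the background was 9.04% higher, 9.36% lower and 18.4% in either direction. EdgeR called 0, DESeq2 called 3 (Psme1, Psmd1 and Psmd7) and library weights gave 2 (Psme1 and Psme2). Over all genes edgeR called 58, and the numbers for DESeq2 and library weights are not given, so those counts have no background. Psme1 had the smallest p: it stood at 360, 296 and 289 normalised CPM in LT tamoxifen libraries A, B and C, against 245, 225 and 227 in LT oil, without overlap (log2 0.43 ± 0.12 SE, adjusted p = 0.0856). Psmd1 stood at 268, 179 and 172 in LT tamoxifen, against 161, 157 and 130 in LT oil, also without overlap (log2 0.44 ± 0.14 SE, adjusted p = 0.144). Psmd7 stood at 103, 105 and 103 in LT tamoxifen, against 87.6, 82.5 and 70.9 in LT oil (log2 0.37 ± 0.12 SE, adjusted p = 0.154). In these 3 genes every tamoxifen library was above every oil library. Psme3 stood at 224, 196 and 230 in LT tamoxifen, against 206, 205 and 177 in LT oil, and the groups overlapped.

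In the core and the immunoproteasome, library A of LT tamoxifen differed from B and C. Library A differed over all genes too. Its log2 levels correlated at 0.9475 with B and 0.9467 with C, where B and C correlated at 0.9754. Its long-to-short log2 ratio was 0.483, the highest of the 18 libraries, against 0.15 and 0.0982 in B and C. The summed core level was 675 normalised CPM in that library and 1012 and 1052 in LT tamoxifen libraries B and C, against 797 to 882 in LT oil. The 3 immunoproteasome genes summed to 52.5 in library A and to 175 and 147 in B and C, against 114 to 142 in LT oil. The 19S sum, by contrast, was 1217 in library A and 1239 and 1222 in B and C, against 1002 to 1129 in LT oil, with no overlap between the groups. Without library A, 0 genes were called. The median log2 fold change of the 50 genes was then 0.22, against 0.08 with library A and -0.01 over all genes without it. Mitosis genes summed to 2260 to 4540 normalised CPM in LT tamoxifen, against 1450 to 1910 in LT oil, and erythroblast markers to 691 to 1200, against 605 to 763. The part of library A and of these genes in the LT values was not tested further.

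In MPPs, 1 week of tamoxifen gave 0 calls among the 50 genes, where the background was 0.0347% higher, 0.0208% lower and 0.0555% in either direction. At an unadjusted p under 0.05 there were 5 (Psma7, Psme2, Psmg1, Psmb4 and Psme3), all higher with tamoxifen. Of all 14419 genes, 455 were higher and 364 lower at that unadjusted p. EdgeR and DESeq2 called 0, library weights 1 (Psma7) and a fit of the compared groups alone 1 (Psmb9). Over all genes edgeR called 5, and the numbers for the other fits are not given. In all, 42 of 50 genes and all 14 core genes had log2 fold changes above 0, with a median of 0.17 for the 50 and 0.17 for the core, against 0.00 over all genes. Psma7, an alpha subunit of the core, stood at 120, 104 and 110 normalised CPM in MPP tamoxifen, against 69.6, 71.8 and 91.5 in MPP oil, without overlap (log2 0.52 ± 0.19 SE, adjusted p = 0.747). Psmb9, which replaces Psmb6 in the immunoproteasome, stood at 92.7, 112 and 115 in MPP tamoxifen, against 75, 65.2 and 64.8 in MPP oil, again without overlap (log2 0.63 ± 0.43 SE, adjusted p = 0.939). That SE rests on the spread within all 6 groups and is not the spread of the MPP libraries. In LT tamoxifen, Psmb9 stood at 13.2 in library A, against 62.1 and 63 in B and C. Groups did not overlap in 13 genes, all higher, where the background was 7.66% higher, 7.23% lower and 14.9% in either direction. Log2 fold change and transcript length had a Spearman correlation of -0.425 across the 50 genes and -0.18 over all genes, a description with no test. The long-to-short log2 ratio ran from 0.118 to 0.134 in MPP tamoxifen, against 0.221 to 0.272 in MPP oil. With length and GC trends removed, the median of the 50 genes was 0.11, and of the core genes Psma6 (log2 -0.05) and Psmb2 (log2 -0.08) lay below 0. The part of length in these values was not tested further. Summed over the 50 genes, levels were 3163 ± 91.7 normalised CPM in MPP tamoxifen and 2746 ± 110 in MPP oil (SD, n = 3 each). Erythroblast markers summed to 171 to 673 normalised CPM in MPP tamoxifen, against 131 to 173 in MPP oil, with 1 of 14 called higher, and their part in these values was not tested.

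**Figure D3:**
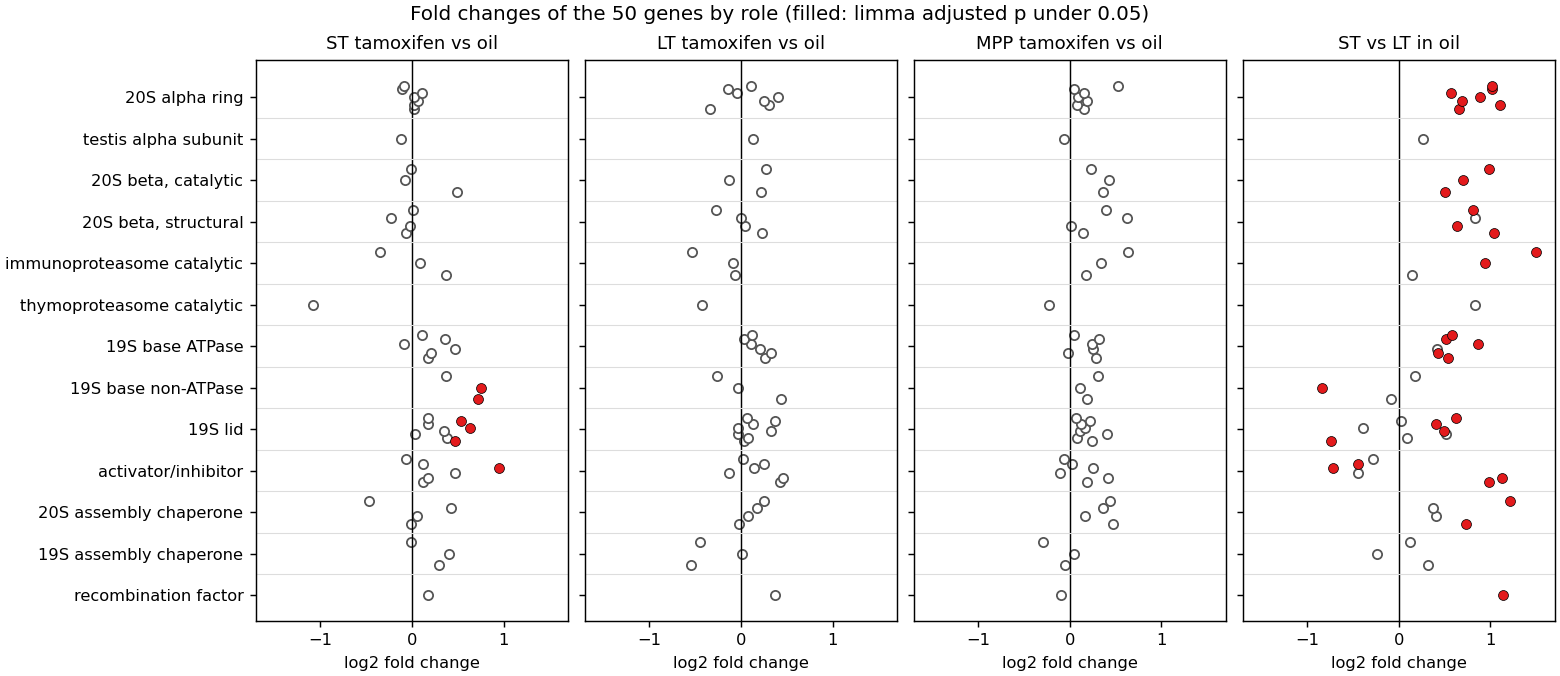
Log2 fold changes of the 50 genes by role for tamoxifen over oil in ST, LT and MPP cells and for ST over LT cells in oil. Each circle is a gene and filled circles passed limma's adjusted p of 0.05; the 6 filled circles of ST tamoxifen against oil lie in the 19S base, the lid and the activators, and the LT and MPP panels have none.

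Whether the tamoxifen effect differed between populations was tested as a difference of effects. No gene of the 50 passed: 0 for ST less LT (background 0.0416% higher, 0.0139% lower and 0.0555% in either direction, 5 genes at an unadjusted p under 0.05), 0 for ST less MPP (background 0.00694%, 4 unadjusted) and 0 for LT less MPP (background 0%, 1 unadjusted). Of all 14419 genes, 1079 were higher and 781 lower at that unadjusted p for ST less LT. The counts were 990 and 752 for ST less MPP, and 349 and 459 for LT less MPP. Psme3 had the smallest p in both differences that involve ST cells. Its ST effect exceeded the LT effect by 0.81 ± 0.17 SE on the log2 scale (adjusted p = 0.0691) and the MPP effect by 0.70 ± 0.17 SE (adjusted p = 0.13). It passed for ST less LT without LT tamoxifen library A, without ST oil library C, with library weights, with DESeq2 and with length and GC trends removed, 1 gene each time. The next was Psmd2, at 0.78 ± 0.22 SE for ST less LT (adjusted p = 0.124) and 0.63 ± 0.22 SE for ST less MPP (adjusted p = 0.253). A rise found in ST cells is therefore not shown to be particular to them.

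The ST and LT cells of oil-treated mice differed in many proteasome genes. Of the 50, 28 were higher and 4 lower in ST cells, where the background was 12.5% higher, 16% lower and 28.5% in either direction. Levels did not overlap in 33 genes that were higher and 5 that were lower, where the background was 21.4% higher, 22.7% lower and 44.2% in either direction. In the 20S core 13 of 14 genes were higher, all but Psmb3 (log2 0.83, adjusted p = 0.0987), with a median log2 fold change of 0.82. With length and GC trends removed, 6 of the 14 were higher and the core's median was 0.40. The comparison uses the same ST oil libraries as that of ST tamoxifen with ST oil, so both sets of values share them.

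In the alpha ring, Psma2 stood at 122, 126 and 96.3 normalised CPM in ST oil, against 58.9, 49.4 and 49.7 in LT oil (log2 1.10 ± 0.15 SE, adjusted p = 3.7e-06). Psma6 stood at 134, 199 and 161 in ST oil, against 87.8, 72.5 and 80.1 in LT oil (log2 1.01 ± 0.15 SE, adjusted p = 9.78e-06). Psma4 had a log2 fold change of 0.89 ± 0.15 SE (adjusted p = 4.95e-05), a call lost with length and GC trends removed (log2 0.37, adjusted p = 0.0633). The ST and LT libraries of these genes did not overlap, nor did those of any of the 14 core genes. In the beta ring, Psmb7, which carries the trypsin-like activity, stood at 157, 150 and 127 in ST oil, against 71, 82 and 65 in LT oil (log2 0.98 ± 0.15 SE, adjusted p = 1.44e-05). Psmb1 stood at 75.2, 85.7 and 54.1 in ST oil, against 33.9, 34.3 and 33 in LT oil (log2 1.04 ± 0.19 SE, adjusted p = 0.000126). Psmb5 was at the low end of the core (log2 0.51, adjusted p = 0.0476), and its call was lost when any 1 of the 6 libraries compared was left out, at adjusted p of 0.0627 to 0.16.

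The activators went in both directions. Psme1 stood at 424, 470 and 489 normalised CPM in ST oil, against 245, 225 and 227 in LT oil (log2 0.98 ± 0.12 SE, adjusted p = 5.44e-07). Psme2, its partner in the interferon-induced PA28 ring, stood at 77.5, 85 and 84.3 in ST oil, against 41.8, 38.1 and 32.2 in LT oil (log2 1.13 ± 0.17 SE, adjusted p = 1.27e-05). Psme3, the subunit of the nuclear ring, was lower instead, at 110, 127 and 120 in ST oil, against 206, 205 and 177 in LT oil (log2 -0.71 ± 0.12 SE, adjusted p = 7.39e-05). All 3 were free of overlap. Psme4 was lower too (log2 -0.44, adjusted p = 0.0139), a call lost without LT oil library B (0.0512) or ST oil library A (0.0555) and with length and GC trends removed (log2 -0.12, adjusted p = 0.567).

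In the 19S particle 8 genes were higher and 2 lower among 17. With length and GC trends removed, 1 of these 17, the ATPase Psmc4, was higher and 2 were lower (median log2 0.07). Without that removal, of the ATPases 5 of 6 were higher, with Psmc4 at 70.9, 82.7 and 57.3 normalised CPM in ST oil, against 37.8, 36.7 and 38.6 in LT oil (log2 0.87). Psmd2 was lower, at 44.6, 59.5 and 61.1 in ST oil, against 103, 102 and 90.1 in LT oil (log2 -0.84 ± 0.15 SE, adjusted p = 0.000175). Psmd11 was lower, at 56.4, 53.8 and 65.5 in ST oil, against 109, 104 and 82.9 in LT oil (log2 -0.73 ± 0.14 SE, adjusted p = 0.000278). Neither overlapped. Side by side with the tamoxifen comparison, Psmd2 averaged 92.5 ± 4.29 in ST tamoxifen, 55.1 ± 9.1 in ST oil and 98.4 ± 7.17 in LT oil, and Psme3 231 ± 1.86 in ST tamoxifen, 119 ± 8.5 in ST oil and 196 ± 16.7 in LT oil. Psmd1 averaged 232 ± 27 in ST tamoxifen, 140 ± 3.33 in ST oil and 149 ± 16.9 in LT oil, and was not called between ST and LT oil.

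Of the immunoproteasome subunits Psmb8 and Psmb9 were higher in ST cells and Psmb10 was not called. Psmb8 stood at 82.8, 109 and 98.1 normalised CPM in ST oil, against 50.5, 47.2 and 50.3 in LT oil (log2 0.94, adjusted p = 0.00424). Psmb9 stood at 143, 179 and 147 in ST oil, against 41.6, 66.4 and 59.2 in LT oil (log2 1.49, adjusted p = 0.0205), a call lost without LT oil library A (0.0776) or ST oil library B (0.0669). Both genes were free of overlap. Levels per kilobase were compared between genes, Psmb8 (1628 bases) with Psmb5 (899 bases), the subunit it replaces. Division by length does not remove a length dependence that differs between libraries, and its part in these ratios was not tested. The ratio of Psmb8 to Psmb5 was 1.31 ± 0.174 in MPP tamoxifen, 1.37 ± 0.426 in MPP oil, 0.739 ± 0.14 in ST tamoxifen, 0.986 ± 0.184 in ST oil, 0.584 ± 0.08 in LT tamoxifen and 0.718 ± 0.04 in LT oil. For Psmb9 over Psmb6 the ratio ran from 0.578 ± 0.228 in LT tamoxifen to 1.27 ± 0.193 in ST oil. For Psmb10 over Psmb7 it ran from 0.193 ± 0.0785 in ST oil to 0.372 ± 0.0543 in MPP oil. Among the chaperones of the core, Psmg1 (log2 0.74, adjusted p = 0.00652) and Psmg4 (log2 1.22, adjusted p = 0.0119) were higher in ST oil, as was Psmc3ip (log2 1.14, adjusted p = 0.00172). Leaving out LT oil library C (0.0584) or ST oil library B (0.0767) ended the call of Psmg4. With length and GC trends removed, none of the 4 chaperones of the core passed, among them Psmg1 (log2 0.29, adjusted p = 0.314) and Psmg4 (log2 0.72, adjusted p = 0.133). Pomp was higher as well, at 132 ± 30.7 normalised CPM in ST oil and 71.6 ± 7.97 in LT oil (log2 0.86, adjusted p = 0.000121), and so was Shfm1 (log2 1.46, adjusted p = 0.000292). Nfe2l1 was lower, at 51.5 ± 7.63 in ST oil and 104 ± 7.59 in LT oil (log2 -1.01, adjusted p = 1.88e-05). Adrm1 was not called (log2 0.18, adjusted p = 0.58). Values with length and GC trends removed are not given for Pomp, Shfm1, Nfe2l1 and Adrm1.

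**Figure D4:**
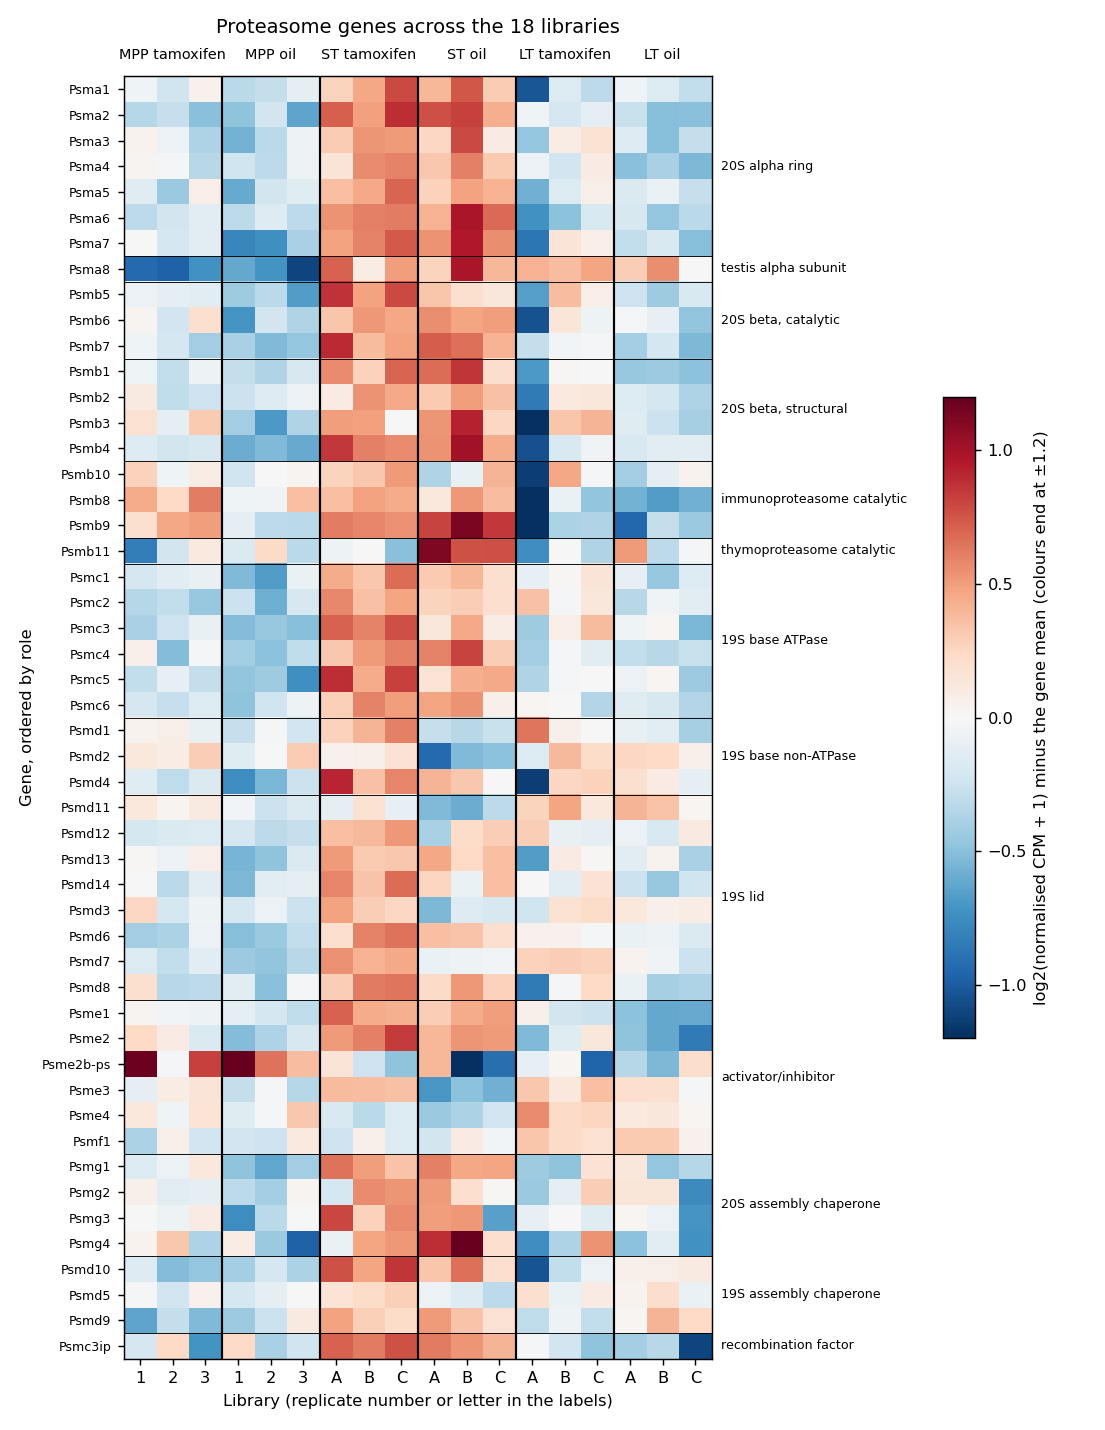
Levels of the 50 genes, by role, in the 18 libraries, as log2(normalised CPM + 1) less the mean of each gene (red above, blue below, colours ending at 1.2 either way). The ST columns are mostly red for the core in both treatments, Psme3, Psmd2 and Psmd11 are blue in ST oil, and LT tamoxifen library A is blue for most core and immunoproteasome genes.

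The ST to LT difference followed transcript length. Across the 50 genes the Spearman correlation of log2 fold change with length was -0.47, and over the 14050 genes with a length it was -0.47, a description across genes that share libraries. The 28 higher genes had a median length of 1265 bases, the 4 lower ones 2904.5 and the 18 not called 1664. Over all genes, those at or under the lower quartile of length (1732 bases) had a median log2 fold change of 0.43 and those at or over the upper quartile (4316 bases) of -0.35. The long-to-short log2 ratio was -0.53 ± 0.0984 in ST oil and 0.25 ± 0.0211 in LT oil. With length and GC trends removed, 13 genes were higher and 3 lower, against 18.9% of all genes, and the median of the 50 was 0.16 in place of 0.53. Psma2, Psmb7, Psme1, Psme2, Psmb8 and Psmb9 were among those still higher, and Psme3, Psmd2 and Psmd11 those still lower. Other gene groups differed too: mitosis genes summed to 2480 to 3120 normalised CPM in ST oil, against 1450 to 1910 in LT oil, with 15 of 20 higher. Erythroblast markers summed to 148 to 171 in ST oil, against 605 to 763 in LT oil, with 7 of 14 lower, and 7 of 12 neutrophil markers were higher. The part of length and of these groups in the proteasome values was not tested further. For ST tamoxifen against ST oil the relation ran the other way and was weaker (Spearman 0.26 across the 50 genes and 0.16 over all). The 6 genes that rose had a median length of 2756 bases and the 44 others 1342.

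**Figure D5:**
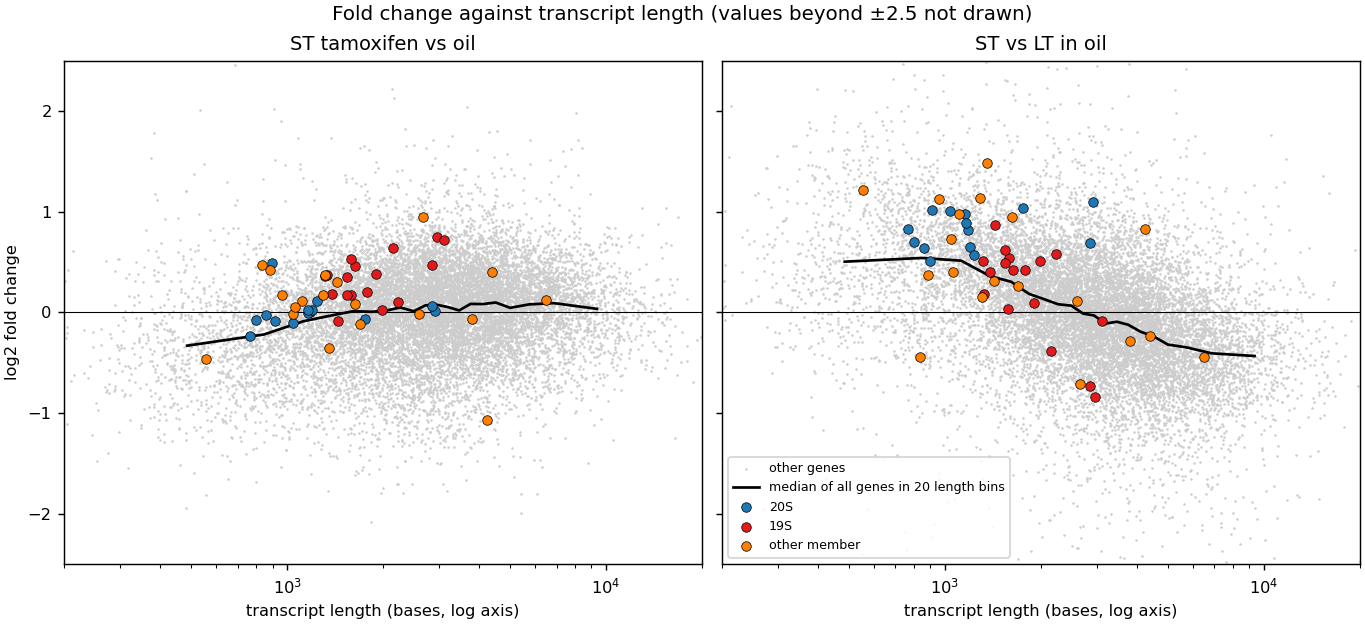
Log2 fold change against transcript length (log axis) for ST tamoxifen over ST oil and for ST over LT cells in oil. Grey points are other genes, the black line is the median of all genes in 20 length bins and coloured points are the 50 genes; in the ST over LT panel most core genes lie above a line that falls with length, and in the other panel most 19S genes lie above a flatter line.

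Compared with ST cells in oil, MPPs in oil had 4 proteasome genes higher and 32 lower, where the background was 16.8% higher, 13.9% lower and 30.7% in either direction. All 14 core genes (median log2 -0.90) and all 6 ATPases were lower. With length and GC trends removed, 4 genes were higher and 13 lower, against 21.3% of all genes. In that fit 7 of the 14 core genes (median log2 -0.44) and 3 of the 6 ATPases were lower. Levels did not overlap in 4 genes that were higher and 36 that were lower, where the background was 22.5% higher, 22.8% lower and 45.3% in either direction. Psma7 stood at 69.6, 71.8 and 91.5 normalised CPM in MPP oil, against 175, 235 and 178 in ST oil (log2 -1.32 ± 0.19 SE, adjusted p = 2.23e-05). Psma2 (log2 -1.13, adjusted p = 2.55e-06), Psmb7 (log2 -1.06, adjusted p = 5.22e-06) Psmb4 (log2 -1.24, adjusted p = 1.43e-05) and Psma6 (log2 -0.95, adjusted p = 2e-05) were lower as well. So were the ATPases Psmc5 (log2 -0.90) and Psmc4 (log2 -0.97), Psme1 (log2 -0.62), Psmg1 (log2 -1.02) and Psmd6 (log2 -0.72). The calls of Psme1 (log2 -0.14, adjusted p = 0.518), Psmg1 (log2 -0.51, adjusted p = 0.0591) and Psmd6 (log2 -0.28, adjusted p = 0.16) were lost with length and GC trends removed. The 4 higher genes were Psmd2 (log2 0.71), Psme4 (0.40), Psme3 (0.38) and Psme2b-ps (1.43). The call of Psme4 was lost without MPP oil library 3 (adjusted p = 0.178) and without ST oil library A (0.0829) or B (0.068). It was also lost after quantile normalisation (0.165), after rescaling without mitochondrial genes (0.0905), without trended robust variances (0.051) and with length and GC trends removed (0.768). The call of Psme3 was lost without MPP oil library 2 (0.144) or ST oil library A (0.0794), after quantile normalisation (0.447) and after that rescaling (0.0954), and that of Psme2b-ps without MPP oil library 1 (0.0562) or ST oil library B (0.0761). Compared with LT cells in oil, MPPs in oil had 2 genes higher and 1 lower, where the background was 7.76% higher, 7.01% lower and 14.8% in either direction. Levels did not overlap in 5 genes that were higher and 9 that were lower, where the background was 18.3% higher, 19.1% lower and 37.3% in either direction. Psma8 was lower, at 3.92, 3.58 and 2.51 normalised CPM in MPP oil, against 8.23, 10.1 and 6.55 in LT oil (log2 -1.10 ± 0.29 SE, adjusted p = 0.00877). Psme1 (log2 0.36, adjusted p = 0.0323) and Psmb8 (log2 0.69, adjusted p = 0.0493) were higher. These 3 did not overlap between MPP oil and LT oil. Without MPP oil library 1, MPP oil library 3 or LT oil library A 1 gene was called, without MPP oil library 2 there were 2, without LT oil library B 0 and without LT oil library C 4. Psmb8 lost its call when any 1 of the 6 libraries was left out, Psme1 when any but MPP oil library 3 was, and Psma8 lost its call without MPP oil library 3 (0.0568) or LT oil library B (0.0661).

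Across the 18 libraries the genes of the core varied together. The median pairwise Pearson correlation of log2 levels was 0.83 among the 14 core genes, 0.78 among the 6 ATPases of the base, 0.47 among the lid genes and -0.14 among the activators and the inhibitor. With group means removed it was 0.55 for the core, -0.01 for the ATPases and 0.81 for the 3 immunoproteasome genes. These values describe libraries that share populations and depth, and no value over all genes is given. They include LT tamoxifen library A, where Psmb8, Psmb9 and Psmb10 stood at 26, 13.2 and 13.2 normalised CPM. In LT tamoxifen library B they stood at 71.5, 62.1 and 41.8, and in C at 54, 63 and 29.6. The part of library A in the correlations was not tested. The correlation of a gene with the mean of the core was 0.90 for Psmd13 and 0.90 for Psmd8 in the lid, 0.95 for Psmc4 in the base, and -0.76 for Psme4. For the 6 genes that rose in ST cells it was -0.17 (Psme3), 0.08 (Psmd1), -0.39 (Psmd2), 0.51 (Psmd7), 0.23 (Psmd3) and -0.51 (Psmd11). Per kilobase, Psme1 had the highest level of the 50 in ST oil at 414 normalised CPM per kb, ahead of Psma7 at 215, and Psmb11 the lowest at 1.26. This order carries the same limit of length as the ratios per kilobase.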

How the data were processed

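RSEM 1.17, Picard, cutadapt, limma and build NCBIM37 are listed per the submitters' processing notes. The annotation, strand setting and scaling method are not given. RNA was amplified with the Ovation system, per the labels' protocols, and the labels describe no molecular identifiers. The values deposited by the authors are a linear normalised signal per gene, like CPM. In every library 100% of values equalled a whole number of reads plus 0.5, times 1 constant (tolerance 0.001), which gave recovered reads of 2728800 to 5279821 per library. Each member had at least 16 reads in every group.

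Levels were compared with limma 3.58.1 (R 4.3.3) on log2(value + 1), 18 libraries in 1 fit with a mean per group (12 residual degrees of freedom), trended robust variances and Benjamini-Hochberg adjustment over 14419 genes at 0.05. Fold changes on this scale understate those of low genes. Each SE rests on the spread within all groups of the fit, LT tamoxifen library A included. EdgeR 4.0.16 and DESeq2 1.42.0 ran on recovered reads as alternatives, with other pseudocounts, filters, scalings, library weights, a replicate block and each library left out. Lengths and GC content came from GENCODE transcripts for 14050 genes. The fit was also run on simulated counts with the same dispersion for every gene. These held no length trend and no outlying library, so they cannot show how the fit deals with either. Members and lists were chosen with earlier results of these data known. All members may be named. In each comparison up to 10 called members with the smallest p, the member with the smallest p of each role in ST cells, Pomp, Adrm1, Shfm1, Nfe2l1 and 2 genes of each list in ST cells are given. Libraries are biological replicates in the design text; whether each is 1 mouse is not given. The labels do not say that replicate numbers or letters pair libraries, so the fit has no block.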

Additional observations from a re-analysis of the deposited data

How the results depend on the processing

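Counts of genes called among the 50 stayed within 1.5 times the reported count in every alternative other than those named here. For ST tamoxifen against oil, removing length and GC trends gave 10 in place of 6, and leaving out 1 library 4 to 7. For ST against LT in oil the same removal gave 16 in place of 32 (leaving out 1 library 22 to 28), and for MPP against ST in oil 17 in place of 36 (26 to 34). It turned the log2 fold change of Psmd6 to -0.00837 in ST against LT and that of Psmb2 to 0.0121 in MPP against ST. It was chosen after seeing the data. For LT tamoxifen against oil, 0 calls became 2 with library weights and 3 with DESeq2, and for MPP tamoxifen against oil 1 with the compared groups alone and 1 with library weights. For the ST effect less the LT effect 0 became 1 with library weights, with DESeq2 and with length and GC trends removed, and 0 to 1 leaving out 1 library. For the ST effect less the MPP effect 0 became 1 with the compared groups alone (Psmb9, lower), with library weights and with DESeq2. For MPP against LT in oil, 3 calls (2 higher, 1 lower) became 5 after quantile normalisation (1 higher, 4 lower), 6 after rescaling without mitochondrial genes (0 higher, 6 lower), 10 with the compared groups alone, 13 with library weights, 1 without trended robust variances, and 0 to 4 leaving out 1 library. The rescaling put the median of all genes at -0.15 for MPP against ST and -0.10 for MPP against LT. The cause of these changes was not tested. Except for edgeR and the removal of length and GC trends, the share of all genes called by each alternative is not given. For the pairing, deviations of same-numbered oil and tamoxifen libraries correlated at -0.0607 to 0.201. Those of LT and ST libraries with the same letter correlated at 0.0782 to 0.146, each library best with its own letter, a hint from the data and not from the design. With the replicate number as a block, 6 genes were called in ST, 0 in LT and 0 in MPPs, and 34 for ST against LT in oil. No paired analysis was possible for MPP against LT or ST because they share no numbers. Over all genes, edgeR on recovered reads called 1175 for ST tamoxifen against oil (limma 1386) and 3987 for ST against LT in oil (limma 4104). With 3 libraries a group, differences smaller than the spread between libraries were not detectable.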
